A study of Mus musculus with 4 samples.

Results

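The genes described here encode 10 proteins of the actin core of stereocilia, the rigid protrusions that hair cells of the inner ear use to sense sound and movement. They are Espn, Espnl, Fscn2, Pls1, Grxcr1, Grxcr2, Eps8, Eps8l2, Triobp and Xirp2, taken by symbol from the 32289 genes of the deposited tables, where each symbol has 1 row. RNA of single cells was counted in mouse inner ear organoids grown from the embryonic stem cell line Atoh1-nGFP, whose nuclear GFP reports Atoh1, a transcription factor that hair cells need to form. Each of the 4 groups is 1 library: organoids of day 16, of day 20, and of day 21 sorted into cells of high GFP (GFP high) and of low GFP (GFP low). All groups share the stem cell line and its reporter, and the labels name no other treatment. The labels speak of single nuclei in 1 field and of sorted cells in the protocol, give a GFP gate for day 21 alone, and do not say how many organoids were pooled. With 1 library per group no difference has a replicate check, so no test was run and every interval covers counting error only.

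A stereocilium holds a bundle of parallel actin filaments that crosslinkers pack tightly, that narrows at its base and ends there in a rootlet anchored in the cuticular plate. Espn (espin), Fscn2 (fascin 2) and Pls1 (plastin 1, or fimbrin) are the crosslinkers of the shaft, and Espnl is a relative of espin. Triobp bundles the filaments of the rootlet, Eps8 and Eps8l2 act at the growing tips, Grxcr1 and Grxcr2 bear on bundle width and base, and Xirp2 binds the core filaments. Of these crosslinkers, Espn and Pls1 also serve ordinary microvilli. Merkel cells, the touch receptors of the skin, also depend on Atoh1 and bear microvilli.

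Promoter sequences are shown for Espn, which was found in several cell classes, and for Grxcr1 and Xirp2, which were found almost wholly in hair-cell-like cells one being highest and the other lowest in those with most Atoh1. RefSeq (build GRCm38.p6) gave a promoter for 8 of the 10 genes and 3 for Espn, and the 250 bases before each start are printed 5′ to 3′ on the gene's strand. Capitals mark matches to CAGCTG, to CAGATG or its reverse complement CATCTG (E-box motifs, the kind bound by factors such as Atoh1) and to TAATTA (a homeodomain motif), searched on both strands. The Espn windows lie at chr4:152152390-152152639, chr4:152136326-152136575 and chr4:152128926-152129175, that of Grxcr1 at chr5:68031585-68031834 and that of Xirp2 at chr2:67445752-67446001.
Espn, start at 152152389: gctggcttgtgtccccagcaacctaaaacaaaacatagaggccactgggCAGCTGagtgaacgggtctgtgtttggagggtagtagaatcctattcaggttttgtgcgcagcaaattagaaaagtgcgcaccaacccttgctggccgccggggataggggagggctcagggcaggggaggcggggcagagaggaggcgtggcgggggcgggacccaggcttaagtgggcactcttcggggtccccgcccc
Espn, start at 152136325: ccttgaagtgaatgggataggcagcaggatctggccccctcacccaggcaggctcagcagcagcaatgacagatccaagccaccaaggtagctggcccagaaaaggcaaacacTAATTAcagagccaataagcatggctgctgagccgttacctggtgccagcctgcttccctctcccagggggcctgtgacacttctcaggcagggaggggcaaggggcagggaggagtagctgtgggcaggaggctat
Espn, start at 152128925: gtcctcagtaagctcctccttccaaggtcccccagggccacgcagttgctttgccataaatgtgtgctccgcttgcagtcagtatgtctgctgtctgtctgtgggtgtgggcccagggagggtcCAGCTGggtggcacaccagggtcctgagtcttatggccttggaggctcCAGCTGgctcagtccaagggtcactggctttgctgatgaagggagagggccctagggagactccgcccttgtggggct
Grxcr1: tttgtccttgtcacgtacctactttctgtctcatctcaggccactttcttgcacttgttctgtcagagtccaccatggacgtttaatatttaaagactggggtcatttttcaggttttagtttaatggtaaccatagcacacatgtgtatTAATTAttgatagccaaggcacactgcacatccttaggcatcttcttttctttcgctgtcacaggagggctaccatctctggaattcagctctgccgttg
Xirp2: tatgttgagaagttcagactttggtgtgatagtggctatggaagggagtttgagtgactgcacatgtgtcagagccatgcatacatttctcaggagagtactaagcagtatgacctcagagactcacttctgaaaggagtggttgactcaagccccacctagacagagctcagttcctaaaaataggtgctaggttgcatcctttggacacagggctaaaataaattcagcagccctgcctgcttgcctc
CAGCTG stands 201 bases before the outermost Espn start, and 126 and 78 bases before the innermost. TAATTA stands 137 bases before the middle Espn start and 100 bases before that of Grxcr1. The Xirp2 window holds none of these motifs. Over the 32851 promoters of the table, windows of this length hold CAGCTG in 13.0%, CAGATG or its complement in 14.4% and TAATTA in 4.84%. These matches are descriptions of the letters, and the counts do not tell transcripts from the Espn starts apart.

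After filtering, the libraries held 3376, 4348, 3435 and 3686 cells (day 16, day 20, GFP high, GFP low), with 42325800 to 107308236 UMIs per library and median UMIs per cell of 8835.5 to 28868. Between 1 and 8 cell barcodes were shared by a pair of libraries. Cells were clustered without the 10 genes, and classes were named from marker lists that hold none of them. The Ccer2-rich class was named instead by Ccer2 standing among the 10 leading genes of a cluster. Hair-cell-like cells numbered 189, 145, 2221 and 823 (5.6%, 3.33%, 64.7% and 22.3% of cells). All 22 hair cell markers were at 10 CPM or more in them in 3 libraries, and 21 in GFP low. CPM is the usual counts-per-million scale, over the UMIs of the cells summed. These markers also served to name the class, so their presence there is no separate support. Ccer2-rich cells, led by the transcript Ccer2, numbered 448, 817, 66 and 144, and 76.9% of the Merkel cell markers were raised in their main cluster, against 40.9% of the hair cell markers. Another cluster, 158 of whose 165 cells were in GFP high, met the marker rule for hair cells and for supporting cells at once, had a median UMI count 1.78 times that of its libraries, and was kept apart.

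All 10 genes are annotated as protein coding (GENCODE M21, build GRCm38). Espn lies on chromosome 4 at 152120331 to 152152371 (minus strand), Espnl on chromosome 1 at 91322075 to 91348306 (plus) and Fscn2 on chromosome 11 at 120361534 to 120368168 (plus). Pls1 spans 95752642 to 95845311 of chromosome 9 (minus) and Triobp 78947724 to 79005869 of chromosome 15 (plus). Grxcr1 spans 68031835 to 68166398 of chromosome 5 (plus) and Grxcr2 41985323 to 41999049 of chromosome 18 (minus). Eps8 occupies 137477245 to 137654876 of chromosome 6 (minus), Eps8l2 141338880 to 141363020 of chromosome 7 (plus) and Xirp2 67446002 to 67526614 of chromosome 2 (plus). Of the genes on the opposite strand that the tables list, B230206H07Rik, which overlaps Eps8l2, had between 1 and 64 UMIs per library, and Gm10865 and Gm13601, which overlap Triobp and Xirp2, had 0.

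Over all cells, the gate separated the actin core genes widely at day 21 and the days hardly at all. To be called, a gene needed a CPM ratio of at least 2-fold in either direction, a 95% counting interval that excluded 1, and 10 CPM on either side. By that rule 8 of 10 genes were higher in GFP high than in GFP low and none was lower, where 6.95% of all genes tested were called higher and 7.72% lower. The median log2 ratio of the 10 genes was 1.15, against -0.04 over all genes tested. Grxcr1 had the largest ratio, 6.27 (95% interval 5.95 to 6.60), from 109 CPM in GFP high and 17.4 in GFP low, with 25.4 at day 16 and 12.8 at day 20. Espn, at 200.3, 213, 1201 and 698 CPM (day 16, day 20, GFP high, GFP low), had a ratio of 1.72 (1.70 to 1.74) and was not called, nor was Eps8 with the same ratio of 1.72 (1.65 to 1.80). Pls1 was called at 2.02 (1.98 to 2.07), close to the threshold, and was not called with a looser filter on cells (500 genes, 20% mitochondrial UMIs; log2 ratio 0.98). The hair-cell-like share of cells differed 64.7% against 22.3% between the same libraries, and fewer cells of a type cannot be told apart from less RNA per cell in these sums.

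Between day 20 and day 16, none of the 9 genes that reached the floor was called over all cells, where 11.8% of all genes were called in either direction. Grxcr1 was nearest, with 25.4 CPM at day 16, 12.8 at day 20 and a ratio of 0.505 (0.457 to 0.558). It was called lower with a looser filter on cells (log2 ratio -1.02) and with doublets kept (-1.08). Fscn2 stood at 7.50 and 11.8 CPM with a ratio of 1.58 (1.39 to 1.80), and Pls1 at 31.8 and 20.2 with 0.636 (0.586 to 0.690).

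**Figure D1:**
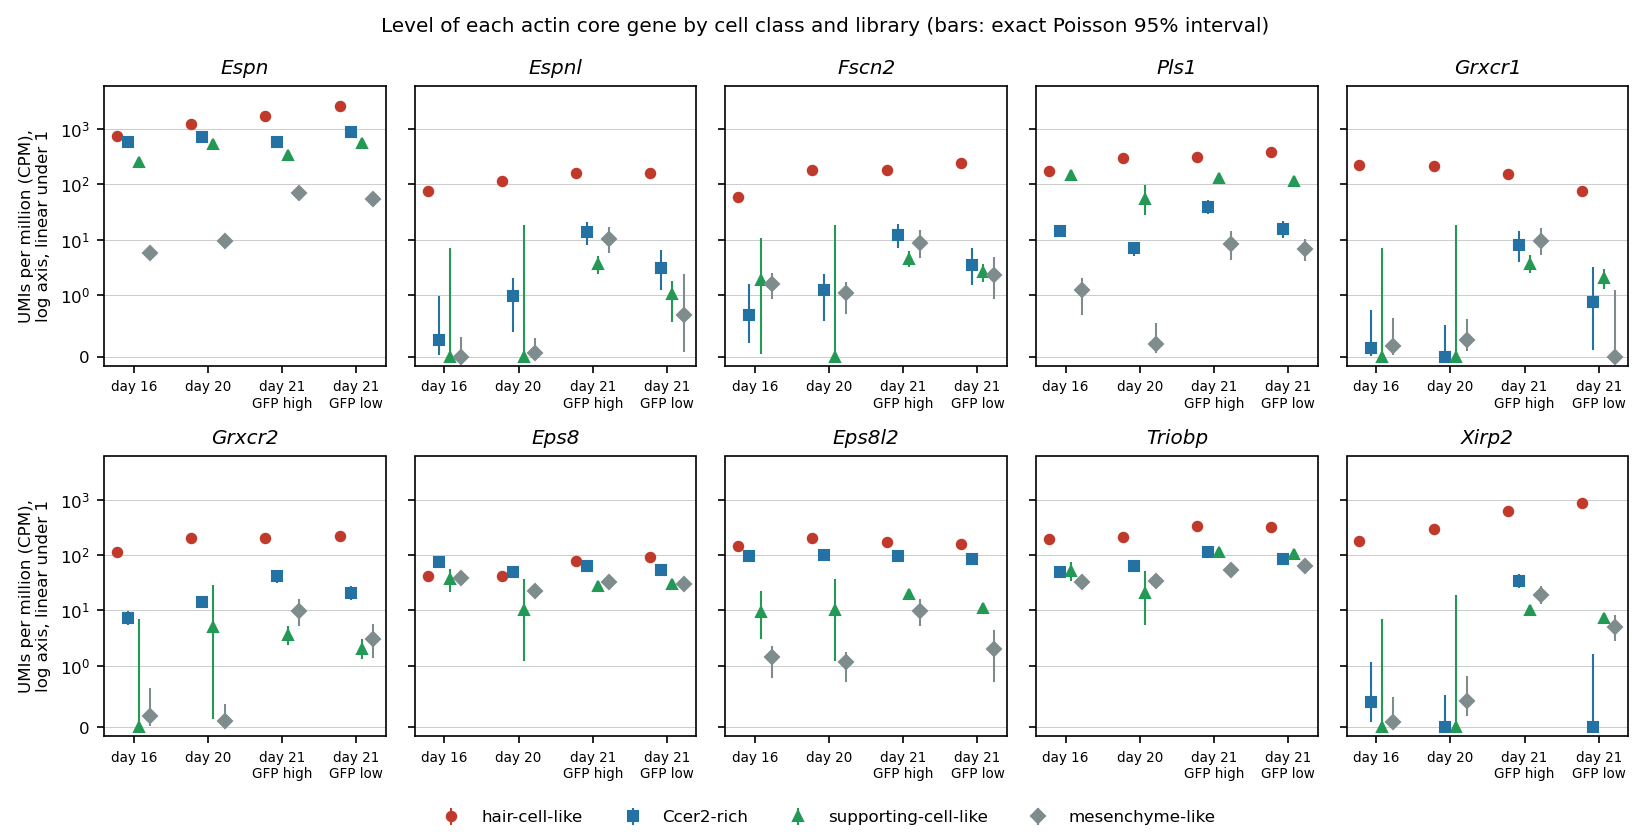
Level of each gene in CPM (log axis, linear under 1) by library, for hair-cell-like (circles), Ccer2-rich (squares), supporting-cell-like (triangles) and mesenchyme-like cells (diamonds), with exact Poisson 95% intervals. In each library Espn in Ccer2-rich cells (581 to 879 CPM) stands far above its mesenchyme-like level (5.72 to 69.8), while Xirp2 there is at 0 to 33.7 CPM.

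The 10 genes divided into those whose UMIs came almost wholly from hair-cell-like cells and those shared with other classes. Xirp2 had 94.9%, 98.1%, 94.9% and 98.3% of its UMIs in hair-cell-like cells (day 16, day 20, GFP high, GFP low), and Espnl had 95.2%, 95.7%, 91.9% and 98.1%. Grxcr1 was alike with 94.6%, 97.1%, 90.3% and 95.7%, although such cells were only 3.33% of the cells at day 20. Fscn2 (85.8 to 96.5%) and Grxcr2 (82.3 to 97.0%) came next. Pls1 was intermediate, with 1061 of 1826 UMIs in hair-cell-like cells at day 16 and 733 of 857 at day 20. At day 21 such cells held 21510 of 25025 Pls1 UMIs in GFP high and 8047 of 10767 in GFP low. Of the rest, neuron-like cells (named by neuron markers) held 362 at day 16. In GFP low supporting-cell-like cells held 1440 and cells of unnamed clusters 965.

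The tip genes, the rootlet gene and espin were spread more widely. Triobp had 1170 of 2914 UMIs in hair-cell-like cells at day 16 and 531 of 1979 at day 20. Neuron-like cells held 714 and 185 of them, mesenchyme-like cells 363 and 640, and Ccer2-rich cells 364 and 445. Espn had 40.7% and 34.0% of its UMIs in hair-cell-like cells at days 16 and 20, and 37.7% and 56.2% in Ccer2-rich cells. Eps8l2 was split likewise, with 38.2% and 54.7% in Ccer2-rich cells at those days. Eps8 had only 15.7% and 10.3% in hair-cell-like cells at days 16 and 20, and mesenchyme-like cells held 27.1% and 42.2%. Ccer2-rich cells held 541 of the 1626 Eps8 UMIs at day 16, more than any other class compared here, and 352 of 1009 at day 20. In GFP high, where hair-cell-like cells prevail, they held 83.0% or more of the UMIs of each of the 10 genes.

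**Figure D2:**
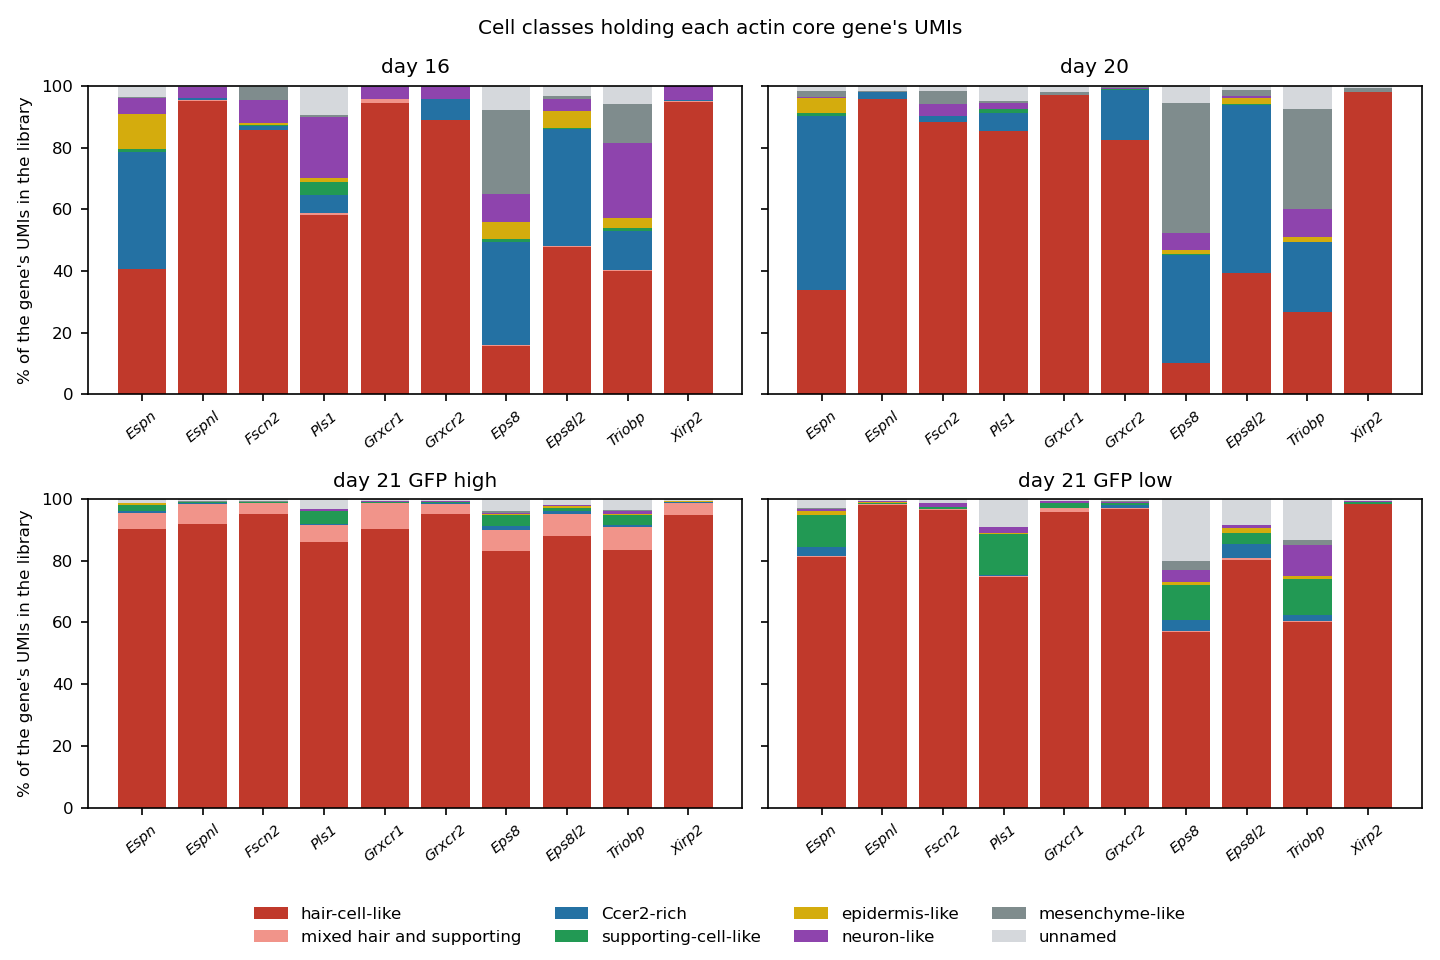
Share of each gene's UMIs (percent, bars stacked to 100) that came from each cell class, in the 4 libraries. At day 20 Ccer2-rich cells hold 56.2% of Espn and 54.7% of Eps8l2 UMIs, while hair-cell-like cells hold 98.1% of Xirp2 UMIs.

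Within hair-cell-like cells the crosslinker genes were lowest at day 16 and highest in GFP low. Espn stood at 761 CPM (739 to 783) at day 16 and 1240.0 (1197 to 1285) at day 20, then 1696 (1687 to 1706) for GFP high and 2575 (2553 to 2597) for GFP low. It was detected in 95.2 to 99.5% of these cells, with a median of 21, 18, 49 and 65 UMIs per cell. The 4 levels do not overlap in their counting intervals and follow the order day 16, day 20, GFP high, GFP low.

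Fscn2 stood at 60.1, 179, 184 and 240.5 CPM in the same order of libraries, so that day 16 was far below the other 3. Pls1 was at 173, 296, 314 and 391.6 CPM, and Espnl at 76.8, 117, 158 and 160.0. Espnl was within counting error between the 2 gates, with a ratio of 0.988 (0.950 to 1.03). Fscn2 was detected in 54.5% of hair-cell-like cells at day 16 and 89.6% in GFP low, at median depths of 32470 and 25282 UMIs per cell, so the lower share went with the deeper cells. In mesenchyme-like cells, which should lack it, Fscn2 was detected in 1.89% and 2.10% of cells (median depths 12583.5 and 20632).

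Xirp2, the core-binding protein, had the widest range between libraries, with 179 and 299 CPM at the early days and 634 and 867 for GFP high and GFP low. Triobp, the rootlet gene, was lower at the early days (190.5 and 215 CPM) than at day 21 (337 and 321). Of the tip genes, Eps8 was likewise at 41.7 and 42.1 CPM and then 78.3 and 90.6, whereas Eps8l2 stayed between 145 and 204 CPM in all 4 libraries. Grxcr2 stood at 112, 202, 205 and 223 CPM.

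Grxcr1 went the other way. It was highest at day 16 with 224 CPM (212 to 236), was 213 (195 to 232) at day 20 and 154 (151 to 157) in GFP high, and was lowest in GFP low with 75.9 (72.2 to 79.8). The first 2 libraries overlap in their intervals, and GFP low lies below all others. Atoh1 in the same cells was at 302, 214, 175 and 33.7 CPM and the reporter transcript Egfp at 6163, 7860.0, 5054 and 1236 CPM.

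The hair-cell-like cells formed 4 clusters, here called states by a gene that marks them. The Atoh1-rich state (led by Pvalb and Gpx2) had 130, 71, 852 and 77 cells in the 4 libraries, the Ocm-rich state 54, 21, 450 and 81, the Cib3-rich state 5, 48, 834 and 349, and the Bmp2-rich state (led by Kcna10 and Lbx2) 0, 5, 85 and 316. A name need not hold for each cell of a state. Ocm was detected in 31.5%, 47.6%, 57.6% and 50.6% of the Ocm-rich cells (day 16, day 20, GFP high, GFP low). Since the states come from the same cells, their levels are a description. Within GFP high, 6 of 10 genes differed at least 2-fold between the highest and the lowest state, where 32.7% of all genes did. Within GFP low 7 did, where 39.9% of all genes did. The median ratio of highest to lowest state was 2.78 for the 10 genes and 1.60 for all genes in GFP high, and 3.44 and 1.75 in GFP low.

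Espn was higher in each successive state in the order Atoh1-rich, Ocm-rich, Cib3-rich and Bmp2-rich, with 859, 1549, 2713 and 2987 CPM in GFP high. GFP low gave 865, 1856, 2828 and 2841 CPM, and the Cib3-rich and Bmp2-rich states of GFP low did not differ beyond counting error (ratio 1.005, 0.987 to 1.02). At days 16 and 20 the Atoh1-rich state had 592 and 724 CPM and the Ocm-rich state 1121 and 1292. Thus the lowest state was the Atoh1-rich one in all 4 libraries.

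The other crosslinkers followed the same order in part. Fscn2 had 65.5, 206, 305 and 322 CPM over the 4 states of GFP high and 31.4, 170, 274 and 267 in GFP low, and its Cib3-rich and Bmp2-rich levels lay within counting error of each other in both. Pls1 peaked in the Cib3-rich state instead, with 164, 290.0, 509 and 411 CPM in GFP high and 129, 322, 464 and 391 in GFP low. Xirp2 also peaked there, with 300.4, 557, 1071 and 979 CPM in GFP high and 194, 699, 1054 and 861 in GFP low. Espnl ran from 129 to 239 CPM in GFP high, a ratio of 1.86 that is under 2-fold, and from 41.3 to 200.1 CPM in GFP low, a ratio of 4.85.

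Grxcr2 had an order of its own. It was highest in the Ocm-rich state, with 84.8, 393, 213 and 387 CPM in GFP high and 42.4, 367, 175 and 271 in GFP low. The Ocm-rich level exceeded the Atoh1-rich one by 4.63-fold (4.41 to 4.86) in GFP high and by 8.66-fold (6.80 to 11.2) in GFP low. In GFP high the Ocm-rich and Bmp2-rich states did not differ beyond counting error (1.01, 0.947 to 1.09).

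Grxcr1 was highest where the crosslinkers were lowest, in the Atoh1-rich state, with 216, 114, 111 and 88.0 CPM in GFP high and 129, 74.4, 88.0 and 54.1 in GFP low. Its Ocm-rich and Cib3-rich levels lay within counting error of each other in both libraries. Eps8l2 varied least, with 168, 182, 175 and 184 CPM in GFP high and 128, 157, 156 and 169 in GFP low. Eps8 (63.0 to 111 CPM in GFP high) and Triobp (312 to 432) also stayed under 2-fold in both libraries.

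**Figure D3:**
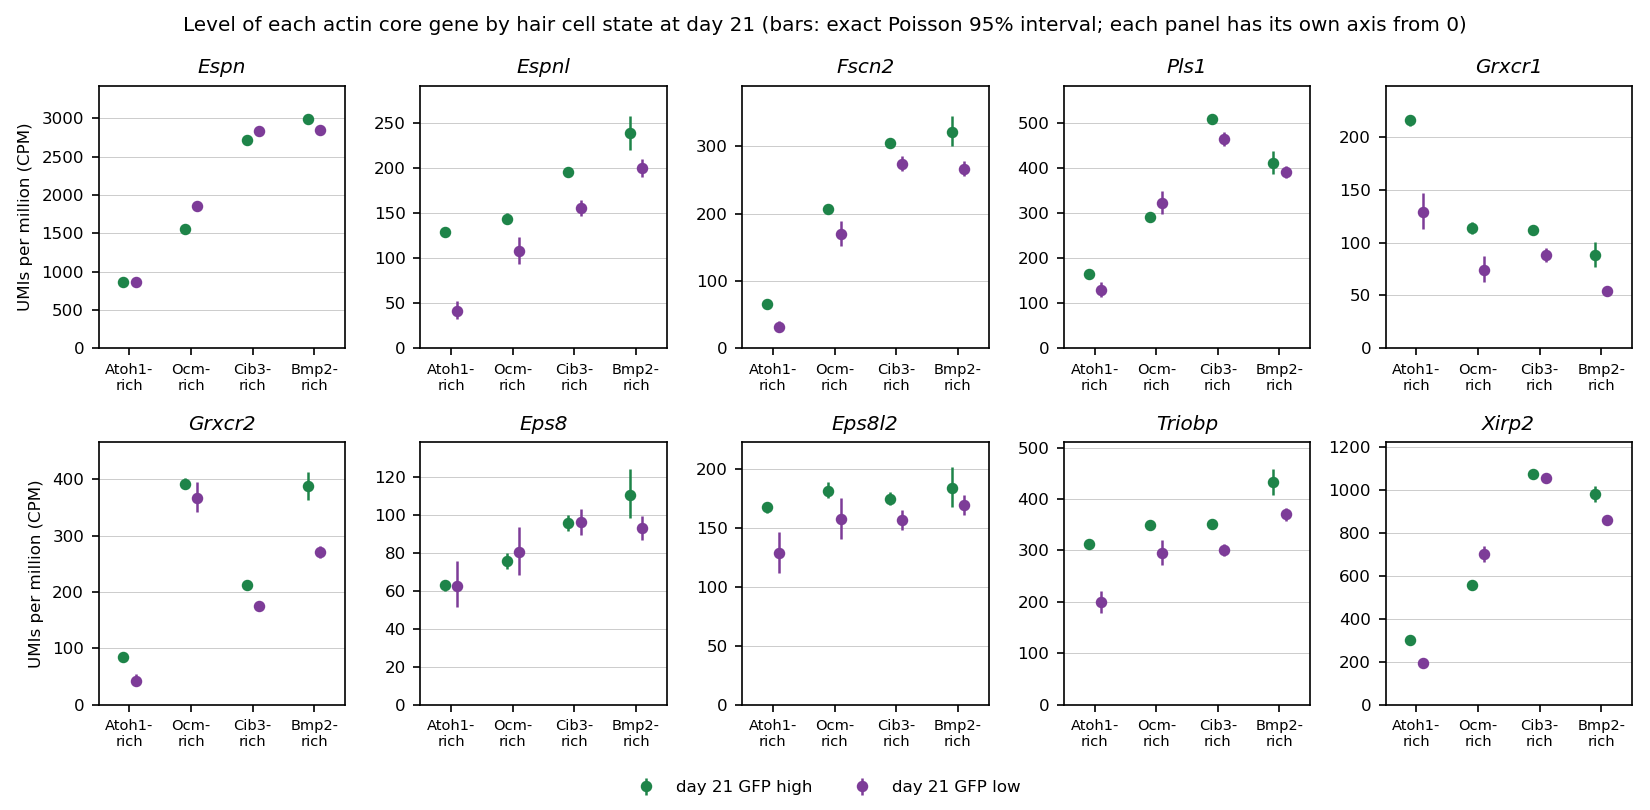
Level of each gene in CPM in the 4 hair cell states of GFP high (green) and GFP low (purple), with exact Poisson 95% intervals and an axis from 0 in each panel. Espn, Fscn2, Pls1 and Xirp2 are lowest in the Atoh1-rich state, Grxcr1 is highest there, Grxcr2 is highest in the Ocm-rich state, and Eps8l2 spans only 168 to 184 CPM in GFP high.

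At a higher resolution most of the Atoh1-rich state fell into a cluster led by Grp and another one, and this split was added after the data had been seen. It left 19 of its 852 cells in GFP high and 7 of 77 in GFP low in neither part. In GFP high the 546 cells of the Grp part were lower than the 287 cells of the other part in 6 of 10 genes, where 5.36% of all genes were lower. Fscn2 was at 25.4 CPM against 149 (ratio 0.171, 0.154 to 0.190) and Xirp2 at 173 against 569 (0.305, 0.292 to 0.318). Espn was at 648 against 1309 CPM (0.495, 0.483 to 0.508). The other 3 were Espnl, Pls1 and Grxcr2, and Grxcr1 was higher in the Grp part without reaching the threshold, with 252 against 148 CPM.

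GFP low, with 58 and only 12 cells, had the same 6 genes lower in the Grp part, where 10.2% of all genes were lower, and Grxcr1 was called higher there at 2.13 (1.31 to 3.67), where 4.56% were. The Grp part held more Atoh1 than the other part, 434 against 181 CPM in GFP high and 325 against 97.3 in GFP low. Thus the part with more Atoh1 had more Grxcr1 and less Fscn2 and Xirp2 in both libraries.

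The gate comparison looked different once hair-cell-like cells alone were counted. Only Grxcr1 was called, higher in GFP high at 2.03 (1.93 to 2.15), where 3.58% of all genes were called higher. None of the 10 was called lower, where 1.73% of all genes were. That call was lost, with log2 ratios of 0.95, 0.54 and 0.99, when per-cell levels were averaged, when GFP high was given the state shares of GFP low, and when the cells with mixed markers were added. The median log2 ratio over the 10 genes was -0.16, against 0.01 over all genes. Espn was lower in GFP high with a ratio of 0.659 (0.652 to 0.666), Xirp2 with 0.732 (0.719 to 0.745) and Fscn2 with 0.766 (0.741 to 0.791), all under the 2-fold threshold. Espnl, Eps8l2 and Triobp lay between 0.988 and 1.09.

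The states were unequally shared between the gates. Atoh1-rich cells were 852 of the 2221 hair-cell-like cells in GFP high and 77 of 823 in GFP low, and Bmp2-rich cells 85 and 316. With GFP high given the state shares of GFP low (shares of UMIs, not of cells), the Espn ratio was 0.994, Xirp2 1.06, Fscn2 1.17 and Pls1 1.07. Grxcr1 was at 1.46, Espnl at 1.27 and Grxcr2 at 1.31. The states come from the same cells, and state, Atoh1 level and gate vary together with 1 library per gate. The part of each in these ratios was not tested.

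**Figure D4:**
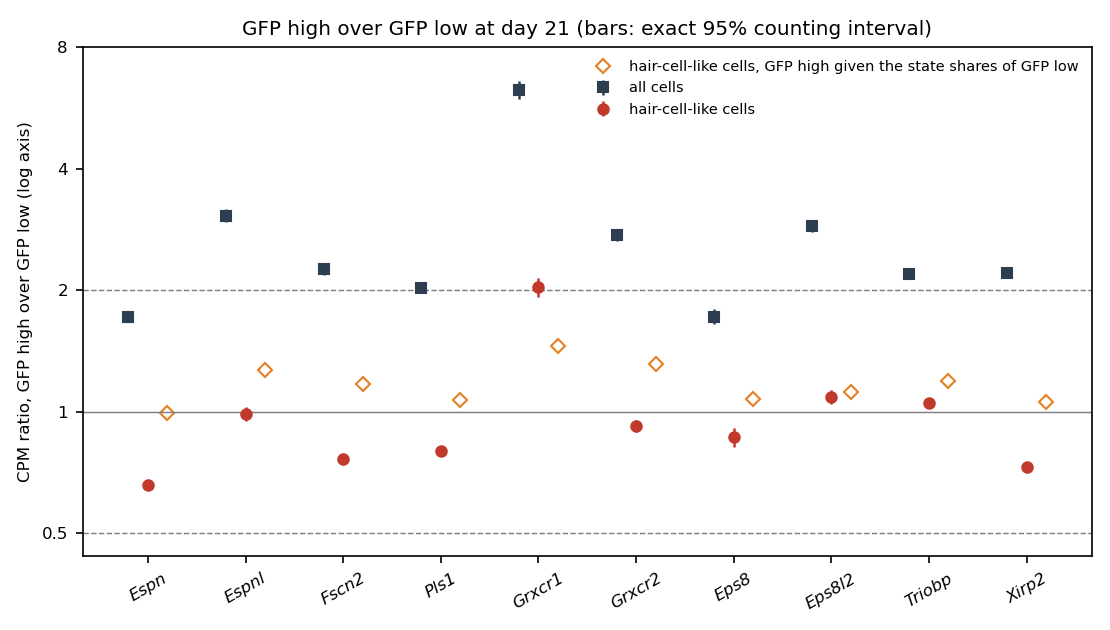
Ratio of GFP high to GFP low in CPM (log axis) for each gene, over all cells (squares), within hair-cell-like cells (circles), both with exact 95% counting intervals, and within hair-cell-like cells when GFP high is given the state shares of GFP low (open diamonds). Dashed lines mark 2-fold. Over all cells the ratios run from 1.72 to 6.27, within hair-cell-like cells from 0.659 to 2.03, and after equalising the states from 0.994 to 1.46.

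State by state, in the Ocm-rich, Cib3-rich and Bmp2-rich states none of the 10 genes was called, where 5.44%, 0.877% and 2.93% of all genes were. In the Atoh1-rich state 2 were called higher in GFP high, where 5.08% of all genes were: Espnl at 3.12 (2.46 to 4.0) and Fscn2 at 2.09 (1.59 to 2.79), on 77 cells in GFP low. Grxcr2 lay just under the threshold there (1.998, 1.58 to 2.56), Triobp (1.56), Xirp2 (1.55), Eps8l2 (1.30) and Pls1 (1.27) had intervals above 1, and Espn was at 0.993 (0.942 to 1.05). Grxcr1 was above 1 in each of the 4 states, at 1.67, 1.53, 1.27 and 1.63, all under 2-fold with intervals above 1. The Grp part made up 58 of the 77 Atoh1-rich cells in GFP low and 546 of 852 in GFP high, and its part in the Espnl and Fscn2 ratios was not tested.

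Between day 16 and day 20, Fscn2 was the gene called within hair-cell-like cells, higher at day 20 by 2.98-fold (2.59 to 3.43), where 5.24% of all genes were called higher. Espn (1.63), Grxcr2 (1.79), Pls1 (1.72), Xirp2 (1.67), Espnl (1.52), Eps8l2 (1.41) and Triobp (1.13) were above 1 with intervals that exclude 1, below the threshold. Grxcr1 (0.951, 0.858 to 1.05) and Eps8 (1.01, 0.796 to 1.27) did not differ beyond counting error. The median log2 ratio was 0.65, against -0.10 over all genes.

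The Cib3-rich state had 5 cells at day 16 and 48 at day 20, so the days also differ in state. Within the Atoh1-rich state alone, on 130 and 71 cells, Fscn2 was still called at 2.50 (1.90 to 3.28), where 4.35% of all genes were called higher. Espn was at 1.22 (1.13 to 1.32), Pls1 at 0.885 (0.744 to 1.05) and Xirp2 at 0.851 (0.714 to 1.01). Day 20 cells were shallower than day 16 cells (median 17151 and 32470 UMIs in hair-cell-like cells), and the part of depth was not tested.

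Ccer2-rich cells shared some of the actin core genes with hair-cell-like cells and lacked others. Espn was at 586, 709, 581 and 879 CPM (day 16, day 20, GFP high, GFP low) and was detected in 97.1%, 94%, 97.0% and 98.6% of the cells. In mesenchyme-like cells it was detected in 3.05%, 3.96%, 26.2% and 21.7%. Median depths were 16207, 8679, 18523 and 15245 UMIs per Ccer2-rich cell and 12583.5, 8399, 21563 and 20632 per mesenchyme-like cell. At day 20, where both classes are large and of like depth, Espn was 73.6-fold (63.4 to 85.7) above its mesenchyme-like level.

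At day 20, 4 of the 5 genes that reached the floor were higher in Ccer2-rich than in mesenchyme-like cells, where 18.5% of all genes were. Besides Espn these were Eps8l2 at 84.2-fold (55.2 to 135), with 98.2 against 1.17 CPM, Eps8 at 2.18-fold (1.89 to 2.51), with 49.2 against 22.6 CPM, and Grxcr2. Grxcr2 was at 14.0 CPM and in 10.0% of Ccer2-rich cells, against 0.106 CPM and 0.090% of mesenchyme-like cells. Triobp, at 62.2 and 33.9 CPM, was not called at 1.83 (1.62 to 2.07). The other 5 genes stayed under 10 CPM in both classes.

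The same comparison at day 16 gave Espn, Pls1 and Eps8l2 higher among 5 genes tested (14.8% of all genes), with Espn at 102-fold (80.2 to 133). In GFP low it gave Espn, Pls1, Grxcr2 and Eps8l2 among 6 tested (17.6% of all genes), with Espn at 16.4-fold (14.0 to 19.4). The smaller ratio went with a higher mesenchyme-like level, 53.6 CPM, of which 86.9% lay in 10 of the 143 cells. Espn and Eps8l2 were thus above the mesenchyme-like level in all 3 libraries compared.

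Set against hair-cell-like cells of their own library, Ccer2-rich cells were lower in 8 of 10 genes in GFP high (19.5% of all genes were lower), 8 in GFP low (22.6%), 8 at day 20 (24.6%) and 7 at day 16 (22.1%). None of the 10 was called higher, where 14.2%, 15%, 12.8% and 10.4% of all genes were. Eps8 was never among the lower ones, with ratios of 1.76, 1.17, 0.797 and 0.590 (day 16, day 20, GFP high, GFP low). Espn was called lower at day 21 alone, with ratios of 0.770, 0.572, 0.343 and 0.342 in the same order. Its Ccer2-rich level differed less between libraries than its hair-cell-like level, which ran from 761 to 2575 CPM. Eps8l2 had ratios of 0.665, 0.481, 0.546 and 0.522 and was called at day 20 alone.

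Xirp2, Grxcr1, Espnl and Fscn2 were near or at 0 in Ccer2-rich cells of day 16, day 20 and GFP low. Xirp2 had 3 UMIs among 448 cells at day 16, 0 among 817 at day 20 and 0 among 144 in GFP low. A count of 0 there means that Xirp2 was at least 714-fold lower than in hair-cell-like cells at day 20 and at least 649-fold lower in GFP low, with 3 counts over the group as the floor. Grxcr1 had 1, 0 and 2 UMIs in those libraries, and at day 20 was 509-fold lower in the same way, with an interval down to 412-fold. In the same 3 libraries Espnl and Fscn2 stayed between 0.271 and 3.56 CPM, and Pls1 between 6.98 and 15.6 CPM. Grxcr2 was not among them, with 7.30, 14.0, 41.6 and 20.9 CPM (day 16, day 20, GFP high, GFP low) in 10.0%, 10.0%, 42.4% and 24.3% of Ccer2-rich cells.

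GFP high stood apart, with 66 Ccer2-rich cells that had 33.7 CPM of Xirp2, 13.6 of Espnl, 12.2 of Fscn2 and 39.5 of Pls1. All 47 Xirp2 UMIs came from 5 cells (7.58%), up to 24 in 1 cell, and 42.8% of the Espn UMIs came from 10 cells. Xirp2 was detected in 6.15% of the mesenchyme-like cells of the same library (median depths 18523 and 21563 UMIs). Of the 22 hair cell markers 19 reached 10 CPM in these cells, against 11 in the other libraries, among them Calb2, 83 of whose 96 UMIs lay in 1 cell. The 4 genes Espnl, Fscn2, Pls1 and Xirp2 were higher in GFP high than in GFP low among Ccer2-rich cells, where 6.35% of all genes were. Espnl and Fscn2 were detected in only 7 and 6 of the 66 cells. Other classes also had genes called higher in GFP high: Espnl (15.3) and Xirp2 (3.81) in mesenchyme-like cells, Espn (2.72) and Pls1 (4.07) in neuron-like cells. In supporting-cell-like and epidermis-like cells no member was called. The part of doublets and free RNA in these differences was not tested.

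Other features of the Ccer2-rich cells bear on how these levels are read. Ccer2 itself was at 69584, 98244, 70440.2 and 68903 CPM there, which takes that share of the UMIs from every other gene. Atoh1 was at 639.7, 793, 801 and 796 CPM, above the hair-cell-like level in each library. The 6 brush border markers, such as Vil1 of intestinal microvilli, summed to between 0 and 2.23 CPM. Myo1a, a myosin of microvilli that is not among them, was found in these cells and is given below. The 107 cells of a second cluster led by Krt17 met the Ccer2-rich rule, and 90 of them were at day 16. There Espn was at 457 CPM (423 to 492) in these 90 cells and at 618 (598 to 639) in the 358 cells of the main cluster, and Eps8l2 at 143 (125 to 164) and 84.8 (77.6 to 92.6).

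Supporting-cell-like cells, the neighbours of hair cells in a sensory epithelium, were lower than hair-cell-like cells in all 10 genes in both day 21 libraries, where 18.6% (GFP high) and 19.8% (GFP low) of all genes were lower. Pls1 was the least reduced in GFP high, at 129 against 314 CPM (ratio 0.410, 0.385 to 0.436), and Espn stood at 344 and 550.5 CPM in GFP high and GFP low. Against mesenchyme-like cells of GFP low, Pls1 was 17.3-fold higher (11.1 to 28.3), Espn 10.3-fold (8.78 to 12.1) and Eps8l2 5.43-fold (2.43 to 15.1), where 15.7% of all genes were higher. Xirp2, Espnl, Fscn2, Grxcr1 and Grxcr2 were each under 10 CPM in that comparison.

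Epidermis-like cells, which express keratins of skin, carried Espn as well. The summed level was 250.1, 213, 238 and 251 CPM in the 4 libraries, in 80.1%, 59.4%, 79.0% and 75.6% of cells, and differed little between them. It was uneven between cells. The 10 cells with most Espn held 19.3%, 39.8%, 60.6% and 44.8% of its UMIs, out of 221, 133, 62 and 90 cells. The median was 4, 1, 5 and 3.5 UMIs per cell. At day 20 Espn was 22.1-fold (18.5 to 26.4) and Eps8l2 12.3-fold (6.76 to 22.5) above the mesenchyme-like level, where 11.5% of all genes were higher, while Eps8 and Triobp were lower at 0.362 and 0.421, where 24.1% were. At day 16 the same 2 genes were higher (11.9% of all genes) and Eps8 was lower (15.6%).

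Single cells were then compared at equal depth, after thinning each to 3000 UMIs and leaving out shallower ones (4, 4, 13 and 15 hair-cell-like cells). Hair-cell-like cells had UMIs of 3.31 ± 1.81, 4.29 ± 2.06, 4.92 ± 1.78 and 5.12 ± 1.63 of the 10 genes (mean ± SD over cells; day 16, day 20, GFP high, GFP low). Before thinning the medians were 9, 9, 10 and 10. Ccer2-rich cells had 1.43 to 1.70 on average and mesenchyme-like cells 0.194 to 0.438. At least 5 genes were seen in 22.7%, 47.5%, 60.3% and 67.9% of hair-cell-like cells, and in 0 to 3.03% of Ccer2-rich cells. By state in GFP high the mean was 3.97 in Atoh1-rich, 5.15 in Ocm-rich, 5.67 in Cib3-rich and 5.96 in Bmp2-rich cells.

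**Figure D5:**
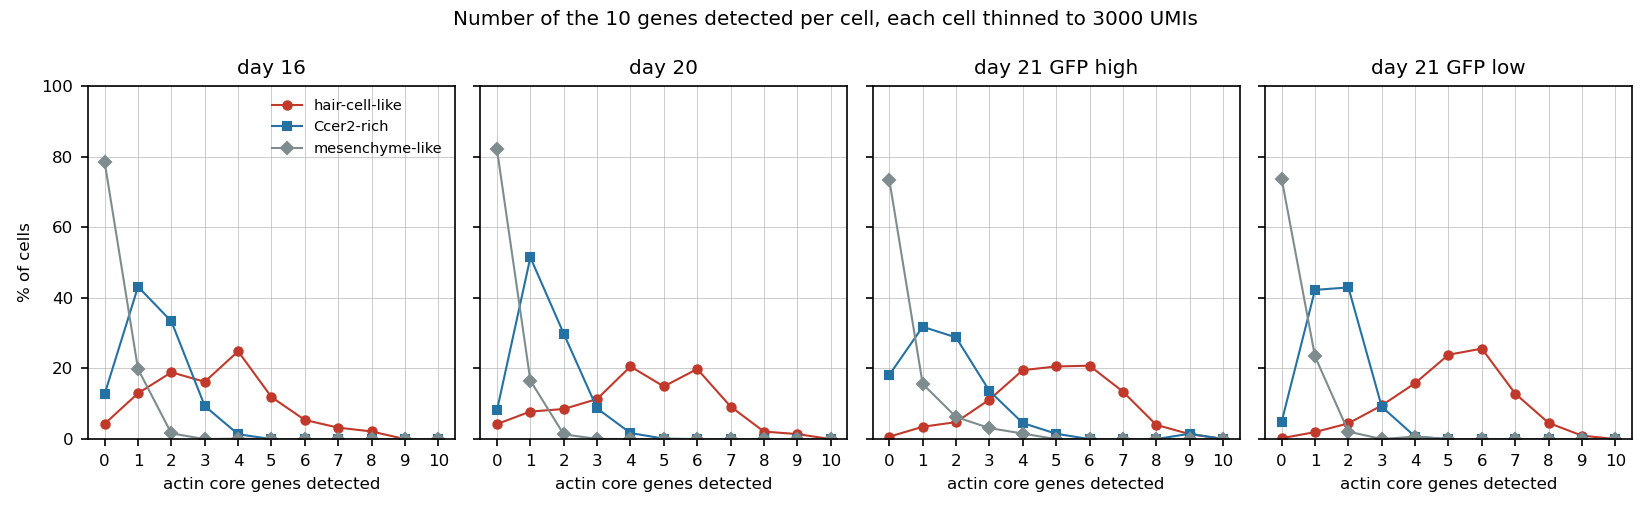
Percent of cells by the number of the 10 genes detected when every cell is thinned to 3000 UMIs, for hair-cell-like (circles), Ccer2-rich (squares) and mesenchyme-like cells (diamonds) of the 4 libraries. Hair-cell-like cells peak at 4 genes at day 16 and at 6 in both day 21 libraries, Ccer2-rich cells at 1 or 2, and mesenchyme-like cells at 0.

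Partner genes of the bundle were followed as lists, whose counts stand beside the share of all genes called. The lists were chosen with earlier results of these data known, so their counts are a description and no independent support. Over all cells, where 6.95% of all genes were higher and 7.72% lower, 6 of 12 genes of the row tip and length list were higher in GFP high and none lower, among them Myo3b (78.1 against 15.5 CPM), a myosin of stereocilia tips, and Myo15 (66.1 against 31.8), the myosin that carries Eps8 to them. Of the shaft and taper list 5 of 10 were higher and 1 lower, with Myo6 at 822 against 250.2 CPM. Of 7 cuticular plate and rootlet partners 2 were higher, Lmo7 (280.4 against 102 CPM) and Lrrc10b. Of 11 actins and other bundlers Gsn (gelsolin, an actin-severing protein) was higher at 2.26 and 2 were lower, among them Fscn1 at 0.447.

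Within hair-cell-like cells the gates differed in 0 of 12 row tip, 1 of 9 shaft, 0 of 7 cuticular plate and 0 of 10 actin genes, where 3.58% of all genes were higher and 1.73% lower. The shaft gene was Tprn, which encodes the taper protein taperin, with 43.1 CPM in GFP high and 12.7 in GFP low (ratio 3.39, 2.99 to 3.86). Between the days, where 5.24% of all genes were higher and 9.66% lower, the first 3 lists had 0 called of 12, 9 and 7. In the actin list Gsn was 11.04-fold higher at day 20, with 363 against 32.9 CPM, and Diaph1, a formin, was lower at 0.457 (0.280 to 0.717).

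In Ccer2-rich cells of GFP high, 7 of 12 row tip, 7 of 9 shaft and 3 of 7 cuticular plate genes were lower than in hair-cell-like cells and none was higher, where 19.5% of all genes were lower and 14.2% higher. Myo3b was at 9.33 against 111 CPM, Elmod1, which acts on stereocilia shape, at 19.4 against 314, and Clic5, which links the base to the membrane, at 2.87 against 58.3. Of 10 actins and other bundlers 2 were higher and 1 lower. Fscn1 (fascin 1, a paralog of Fscn2) was 2.80-fold higher, with 111 against 39.7 CPM, Cfl1 (cofilin, an actin-severing protein) was 2.93-fold higher, and Gsn was lower, with 74.6 against 752 CPM. Myo1a, a myosin of microvilli, was at 45.9 against 0.0729 CPM, although Ush1c, which brush borders and hair cells both use, was at 10.8 against 171. At day 20, Lmo7 was 13.2-fold and Ezr (ezrin, which ties actin to the membrane in microvilli) 5.68-fold above the mesenchyme-like level, where 18.5% of all genes were higher.

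As a description over the 11 sums of a hair cell state in a library with 50 or more cells, Espn went with Xirp2 and Pls1 (Pearson r of log2(CPM + 1) 0.97 each) and against Grxcr1 (-0.87) and Atoh1 (-0.97). Grxcr1 went with Atoh1 (0.89). The weakest relations were those of Eps8l2 to Grxcr1 (-0.22) and to Atoh1 (-0.28). With the rest of the 10 genes the r of Eps8l2 ran from 0.32 (Eps8) to 0.73 (Grxcr2). These sums share libraries, depth and reporter, and carry no test. Over 56 sums of a cluster in a library with 50 or more cells, the pattern of Espn was closest to Eps8l2 among the 10 genes (0.95), and among 9050 other genes to Ap1m2 (0.93), Lmo7 (0.92) and Stard10 (0.92). Xirp2 was closest to Armc4, Loxhd1 and Cfap161 (0.98 each), and Grxcr1 to Cfap52 (0.97), Defb25 (0.97) and Prph2 (0.96). Within hair cell sums Espn and Grxcr1 were opposed, while over all clusters they went together (0.70).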

How the data were processed

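The authors deposited raw UMI counts per gene and barcode for 4 libraries, made with Cell Ranger and build mm10 per the submitters' processing notes (version 6.1.0) and per the file headers (6.1.2). Those notes also name Seurat 4.0.6. Whether counting used strand is not given in the sources used here. All lists and the 10 genes were chosen with earlier results of these data known.

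Cells with 1000 or more genes and at most 15% mitochondrial UMIs were kept. Scrublet scores (scanpy 1.11.5) were used to remove the highest-scoring barcodes at 0.8% per 1000 barcodes (109 to 205 per library), since its automatic threshold marked only 1 to 66. Cells were clustered without the 10 genes (2000 variable genes, 30 principal components, 20 neighbours, Leiden resolution 1, leidenalg 0.10.2), giving 26 clusters. A cluster with Ccer2 among its 10 leading genes was named Ccer2-rich. The others were named where 50% of a marker list was raised 4-fold over the median cluster. Such a name was withdrawn where another list had more of the leading genes, or where a shallow cluster had none of its own list among them. Class names may differ from the study's own.

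UMIs were summed per class and library as counts-per-million values (CPM), with exact Poisson intervals. Ratios have exact conditional binomial intervals (scipy 1.17.1) and shares of cells exact binomial ones. These cover counting error only. The procedure was tested on simulated data. These were Poisson counts without spread between cells, so the test cannot show how the intervals fare under such spread. From each partner list up to 4 genes with the largest ratio at 20 CPM or more could be named. For likeness, the 3 genes with the highest r were named among those at 50 CPM or more. Alternatives included TMM scaling (edgeR 4.0.16), other filters, resolutions and gene numbers. GENCODE M21 held 32235 of the 32289 gene identifiers.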

Additional observations from a re-analysis of the deposited data

How the results depend on the processing

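Of 75 counts of called genes recomputed under alternatives, 70 stayed within 1.5 times the reported count. Between day 20 and day 16 over all cells the count was 1 instead of 0 with the looser filter on cells and 1 with doublets kept, by Grxcr1 in both. Within hair-cell-like cells the count for GFP high over GFP low was 0 instead of 1 with the mean of per-cell CPM, 0 with the state shares of GFP low and 0 with the mixed cells added, again by Grxcr1, whose ratio lies at the threshold. The cause was not tested. Adding the mixed cells, leaving out the Krt17-led cluster and splitting the Atoh1-rich state were chosen after seeing the data. Of 521 values for single genes under alternatives, 72 moved by more than their counting interval, 15 of them by over 1.5 times. No called value changed sign, but 13 that were not called moved to the other side of 1. With the state shares of GFP low, 6 of these were the gate ratios of Espnl, Fscn2, Pls1, Grxcr2, Eps8 and Xirp2 in hair-cell-like cells, from 0.732 to 0.988 before and from 1.06 to 1.31 after. TMM scaling shifted log2 ratios by 0.12 (gate, all cells) and 0.19 (days, all cells) and left the counts at 8 and 0. Resolution 0.5 left no supporting-cell-like class. No paired analysis was possible because each group has 1 library. Some groups were small: 66 Ccer2-rich and 65 mesenchyme-like cells in GFP high, 12 cells in the smaller part of the Atoh1-rich state in GFP low, and 21 Ocm-rich cells at day 20.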
